A study of Mus musculus with 20 samples.

Results

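The genes described here are 10 genes of fatty acid uptake and transport. Lpl, Gpihbp1, Vldlr, Cd36, Slc27a1, Slc27a4, Acsl1, Fabp4 and Fabp5 act in the release of fatty acids from lipoproteins, their uptake and their handling in the cell, and Aqp7 carries glycerol, the other product of fat breakdown. They were chosen by symbol, and each was found in exactly 1 of the 46744 rows of the deposited table. The RNA came from full skin of the laboratory mouse strain C57BL/6, in 20 samples that make up 6 groups. Controls (Sod2+/+) aged 700 days (n = 4) and 50 days (n = 5) share a title prefix. Under another prefix stood skin of a conditional knockout (cKO, genotype Sod2-/-) at 100 days (n = 3) with control skin of that age (n = 2), and cKO skin (n = 3) with control skin (n = 3) at 300 days. Sod2 encodes the superoxide dismutase of mitochondria. Neither the cells in which it was deleted nor the Cre driver is named in the labels, and they leave unsaid whether the samples of a group came from separate animals.

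In the body, triglycerides reach the skin in lipoproteins. Lipoprotein lipase (Lpl), made largely by adipocytes and muscle, is carried by the endothelial protein Gpihbp1 to the capillary wall, where it splits triglycerides into fatty acids. Surface proteins such as Cd36 take these up, acyl-CoA synthetases trap them, and fatty acid binding proteins carry them inside the cell. Fat cells of the deep skin are a main site of this traffic, while keratinocytes use their own set of binding and transport proteins to build the skin barrier.

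Each group had 1 value per gene in FPKM (fragments scaled to gene length and to mapped reads), computed by the authors, so no value below has a replicate spread, an error or a test. A difference is given as the log2 ratio of (FPKM + 1), and differences of size 1 or more, either way, are called counted below. All 10 genes passed the filter of a mean of at least 1 FPKM, which left 12141 named genes, and none was listed at 0 in any group. The FPKM totals of the groups ran from 496936 (700-day controls) to 692242 (300-day cKO), and read depth is unknown. Sod2 itself stood at 17.6 FPKM in cKO and 27.7 FPKM in control skin at 100 days, then at 16.8 FPKM in cKO and 23.5 FPKM in control skin at 300 days. Both cKO groups and the 700-day controls had 14.7 to 45.1 FPKM of Uty, Kdm5d, Eif2s3y and Ddx3y, which are Y-linked, and the other 3 groups had at most 0.347 FPKM. Sex therefore cannot be told apart from genotype at either age, nor from age in the 700- and 50-day controls, while the 300- and 100-day groups of each genotype were alike in these genes. Levels are not compared across the title prefixes.

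Fabp4 and Fabp5 are close relatives that differed in opposite directions in each of the 3 main comparisons below, so whether reads can tell them apart matters first. Fabp4 lies on chromosome 3 from 10204088 to 10208576 and Fabp5 on the same chromosome from 10012548 to 10016607 (GRCm38, GENCODE M21). Their coding sequences, of 399 and 408 bases, were identical at 60.9% of 399 aligned bases. The stretches around their longest shared run, from GENCODE transcripts, are shown with that run in capitals; positions are counted from the first base of the start codon, 75 to 146 in Fabp4 and 81 to 152 in Fabp5.
Fabp4: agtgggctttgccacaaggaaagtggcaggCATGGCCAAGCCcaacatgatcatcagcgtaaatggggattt
Fabp5: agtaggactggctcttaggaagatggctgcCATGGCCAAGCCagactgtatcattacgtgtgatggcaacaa
The shared run is 12 bases, against reads of 75 bases. No 75-base stretch of an annotated Fabp4, Cd36, Gpihbp1, Slc27a4 or Vldlr transcript occurs in a transcript of another gene. For Fabp5, 3.03% of such stretches also occur in other genes (Gm6166 and Gm14328), so a small part of its value is uncertain. The share was 8.77% for Acsl1, all with the opposite-strand gene Gm45244 that overlaps it, and at most 0.888% for Lpl, Aqp7 and Slc27a1. No source used here gives how the authors assigned shared reads. In the same assembly lie Cd36 (chromosome 5, 17781690 to 17888801), Gpihbp1 (chromosome 15, 75596628 to 75599481), Aqp7 (chromosome 4, 41033074 to 41048139), Vldlr (chromosome 19, 27216484 to 27254231) and Slc27a4 (chromosome 2, 29802634 to 29817522). Chromosome 8 holds Lpl (68880491 to 68907448), Acsl1 (46471037 to 46536051) and Slc27a1 (71568882 to 71587302). Apart from Acsl1, none of the 10 overlaps another annotated gene.

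RefSeq promoter windows of GRCm38.p6, each 300 bases around a start, were matched by symbol for 6 of the 10 genes: Slc27a4, Aqp7, Cd36, Acsl1, Slc27a1 and Vldlr. Lpl, Gpihbp1, Fabp4 and Fabp5 were not matched. The hexamer AGGTCA is the core of the sites that nuclear receptors such as PPAR-gamma bind. Of the matched genes, Cd36, Aqp7, Acsl1 and Slc27a1 were lower in each main comparison, and no window of Acsl1 or Slc27a1 held the hexamer. Cd36 and Aqp7 are shown because they were the matched genes whose windows held it. The windows are chr5:17835847-17836146 (Cd36) and chr4:41047913-41048212 (Aqp7), both on the minus strand and printed along the gene, with the hexamer in capitals (it reads on the opposite strand).
Cd36: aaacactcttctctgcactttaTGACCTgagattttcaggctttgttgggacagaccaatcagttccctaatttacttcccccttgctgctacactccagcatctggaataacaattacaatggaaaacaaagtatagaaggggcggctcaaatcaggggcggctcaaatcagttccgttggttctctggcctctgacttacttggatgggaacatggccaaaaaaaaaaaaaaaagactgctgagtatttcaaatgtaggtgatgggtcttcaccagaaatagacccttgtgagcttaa
Aqp7: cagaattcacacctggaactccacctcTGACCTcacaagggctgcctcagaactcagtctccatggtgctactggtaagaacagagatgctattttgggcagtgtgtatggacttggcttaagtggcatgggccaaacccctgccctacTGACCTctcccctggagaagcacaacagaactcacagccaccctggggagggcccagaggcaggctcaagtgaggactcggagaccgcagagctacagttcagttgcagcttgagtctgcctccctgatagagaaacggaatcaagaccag
On either strand the hexamer was found in 3 of the 11 windows of these genes, and in 16.3% of all 32851 windows. In the Cd36 window it begins at position -228 from the start, and in the Aqp7 window at positions -223 and -101. A further Aqp7 window overlaps this one, and its 1 hexamer is the one at -223. The full element for PPAR with its partner RXR, searched as AGGNCANAGGNCA on both strands, was in none of the 11 windows and in 0.381% of all windows. The TATA box (TATAAA) was in none of the 11 and in 13.6% of all windows. These matches describe letters in a short window only.

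**Figure D1:**
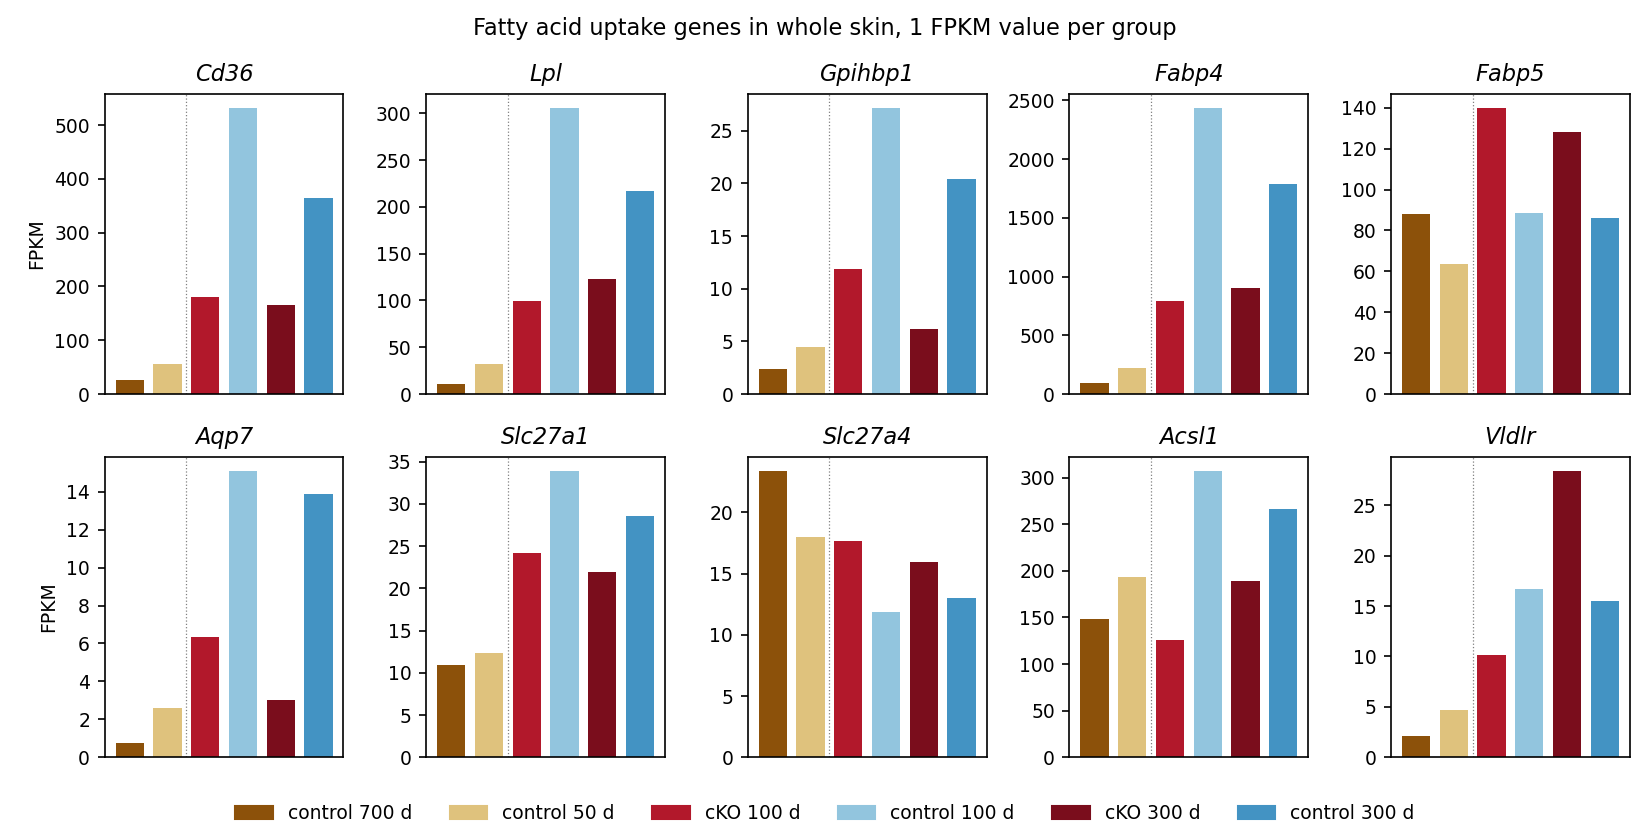
FPKM of each gene (vertical axis, linear from 0) in the 6 groups, 1 bar per group value and no error because the table holds 1 value per group. A dotted line parts the 2 title prefixes. The bars of Fabp5 and Slc27a4 are taller in cKO than in control skin at both ages, while those of Cd36, Lpl, Gpihbp1, Fabp4, Aqp7, Acsl1 and Slc27a1 are shorter.

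Fabp4 had the highest FPKM of the 10 genes in 5 groups, and Acsl1 in the 700-day controls. At 100 days Fabp4 made up 56.4% (cKO) and 64.5% (control) of the summed FPKM of the 10 genes. At 300 days its share was 57.1% in cKO and 63.6% in control skin, and in the controls it was 22.6% at 700 days and 36.9% at 50 days. Aqp7 had the lowest FPKM in the 700-day and 50-day controls and in both cKO groups, and Slc27a4 had the lowest in the 100- and 300-day controls. The summed FPKM of the 10 genes was 404 at 700 days and 612 at 50 days. It was 1413 in cKO and 3775 in control skin at 100 days, and 1586 in cKO and 2812 in control skin at 300 days. With no replicate values, neighbours in these orders cannot be set against a spread.

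The genotype comparison at 100 days held the most counted differences of these genes, and its control group was the smallest of all groups (n = 2). In cKO skin 6 of the 10 had a counted lower level than in control skin (Lpl, Fabp4, Cd36, Acsl1, Aqp7 and Gpihbp1), against 4.29% of all genes tested, and none was higher, against 2.19%, which makes 6.48% of all genes in either direction. Their median log2 ratio was -1.13, and that of all genes tested was 0.02. At 300 days 3 of the 10 were lower (Aqp7, Gpihbp1 and Cd36), against 5.07% of all genes, and none higher, against 1.84% (6.91% either way), with a median of -0.66 beside -0.01 for all genes. In the old against the young controls 4 were lower (Lpl, Fabp4, Aqp7 and Cd36), against 3.25% of all genes, and none higher, against 0.601% (3.85% either way). The median there was -0.77, beside -0.03 for all genes.

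**Figure D2:**
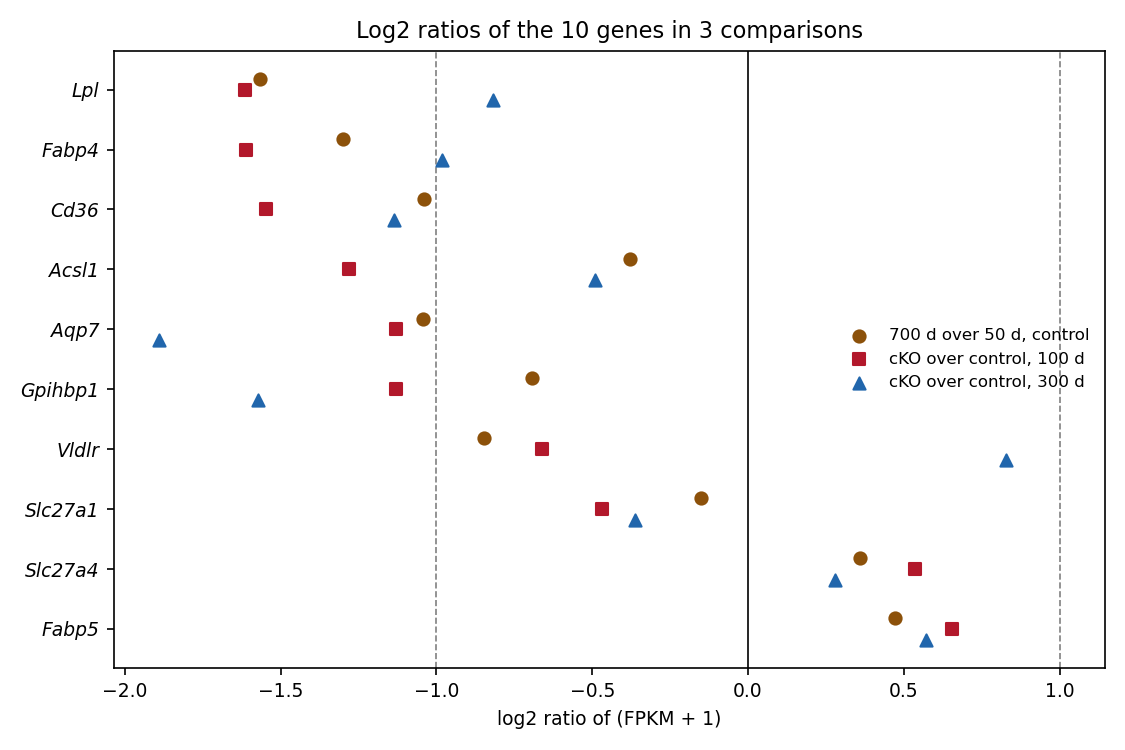
Log2 ratios of (FPKM + 1), horizontal axis, for each gene (rows, ordered by the 100-day genotype ratio) in 3 comparisons, each marker being the ratio of 2 group values. Dashed lines mark a size of 1. Lpl, Fabp4, Cd36, Gpihbp1, Aqp7, Acsl1 and Slc27a1 lie left of 0 in all 3. Fabp5 and Slc27a4 lie right of 0 in all 3, and Vldlr lies on both sides.

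The lipase and its endothelial partner were lower in the cKO and in the old group. Lpl was 99.3 FPKM in cKO and 306 FPKM in control skin at 100 days (log2 ratio -1.61), a lower ratio than that of 98.8% of all genes tested. At 300 days it was 123 FPKM in cKO and 217 FPKM in control skin (-0.82), short of the size counted. In the controls it was 10.2 FPKM at 700 days and 32.2 FPKM at 50 days (-1.56). Lpl was thus below its comparison group each time, and of the 3 ratios that at 300 days was the smallest in size.

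Gpihbp1, which anchors the lipase at the capillary wall, had its larger genotype difference at 300 days. It stood at 11.9 FPKM in cKO and 27.2 FPKM in control skin at 100 days (log2 ratio -1.13), and at 6.21 FPKM in cKO and 20.5 FPKM in control skin at 300 days (-1.57). In the controls it was 2.35 FPKM at 700 days and 4.42 FPKM at 50 days (-0.69). Per FPKM of Gpihbp1 there were 8.36 FPKM of Lpl in cKO and 11.3 in control skin at 100 days. At 300 days there were 19.7 FPKM of Lpl per FPKM of Gpihbp1 in cKO and 10.6 in control skin. Among controls this quotient was 4.35 at 700 days and 7.28 at 50 days. The quotient was lower in cKO than in control skin at 100 days and higher at 300 days, a difference that was not tested.

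Since Gpihbp1 is made by endothelial cells, 12 other blood endothelial genes were set beside it. In whole tissue, fewer cells of a type and less RNA per cell cannot be told apart. Of these 12 none passed the size counted in any of the 3 main comparisons, and their medians were -0.50 at 100 days, -0.51 at 300 days and -0.48 in old against young controls. The log2 ratio of Gpihbp1 lay below the lowest of the 12 in the genotype comparison at 100 days (-0.89) and at 300 days (-0.96), and inside their range in the age comparison, where the lowest was -0.90. Pecam1, the endothelial adhesion molecule CD31, was 28.0 FPKM in cKO and 32.6 FPKM in control skin at 100 days, and 19.3 FPKM in cKO and 35.2 FPKM in control skin at 300 days. Cdh5, the cadherin of endothelial junctions, was 7.48 FPKM in cKO and 14.7 FPKM in control skin at 100 days, and 8.11 FPKM in cKO and 12.5 FPKM in control skin at 300 days.

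Vldlr, a receptor that binds apolipoprotein E on triglyceride-rich lipoproteins, was the gene whose genotype difference changed sign. At 100 days it was 10.2 FPKM in cKO and 16.7 FPKM in control skin (log2 ratio -0.66). At 300 days it was 28.4 FPKM in cKO and 15.5 FPKM in control skin (0.83). The difference of these ratios, 300 minus 100 days, was 1.49, above that of 98.8% of all genes tested, and it rests on 4 group values with no test. In the controls Vldlr was 2.15 FPKM at 700 days and 4.67 FPKM at 50 days (-0.85). The 300-day cKO was the highest of the 4 groups under its title prefix, and the other 3 lay between 10.2 and 16.7 FPKM.

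Cd36, a surface receptor for long-chain fatty acids on adipocytes, muscle, endothelium and macrophages, was lower in all 3 comparisons by the size counted. It stood at 181 FPKM in cKO and 532 FPKM in control skin at 100 days (log2 ratio -1.55), and at 165 FPKM in cKO and 364 FPKM in control skin at 300 days (-1.14). In the controls it was 26.5 FPKM at 700 days and 55.5 FPKM at 50 days (-1.04). With the FPKM rescaled to equal totals, the ratio of old to young controls was -0.95, just short of the size counted.

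The transport proteins Slc27a1 and Slc27a4 (FATP1 and FATP4), which couple uptake to acyl-CoA formation, differed in opposite directions, each by less than the size counted. Slc27a1, found mainly in muscle and fat, was 24.2 FPKM in cKO and 33.9 FPKM in control skin at 100 days (log2 ratio -0.47), 22.0 FPKM in cKO and 28.6 FPKM in control skin at 300 days (-0.36), and 11 FPKM at 700 days and 12.3 FPKM at 50 days in the controls (-0.15). Slc27a4, which mice need for a working epidermal barrier, was 17.7 FPKM in cKO and 11.9 FPKM in control skin at 100 days (0.54). At 300 days it was 16.0 FPKM in cKO and 13.0 FPKM in control skin (0.28), and it was 23.4 FPKM at 700 days and 18 FPKM at 50 days (0.36). The quotient of Slc27a4 to Slc27a1 was 0.730 in cKO and 0.351 in control skin at 100 days, 0.727 in cKO and 0.454 in control skin at 300 days, and in the controls 2.13 at 700 days and 1.46 at 50 days. It was higher in the cKO and in the old group each time.

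Acsl1, the main long-chain acyl-CoA synthetase of fat cells, was 126 FPKM in cKO and 307 FPKM in control skin at 100 days (log2 ratio -1.28). Acsl1 at 300 days was 190 FPKM in cKO and 267 FPKM in control skin (-0.49). In the controls it was 148 FPKM at 700 days and 193 FPKM at 50 days (-0.38). The size counted was thus passed at 100 days only, and whether the ages differ was not tested.

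Of the binding proteins, Fabp4, the form of adipocytes, macrophages and capillary endothelium, was 796 FPKM in cKO and 2436 FPKM in control skin at 100 days (log2 ratio -1.61). By 300 days Fabp4 was 905 FPKM in cKO and 1787 FPKM in control skin (-0.98), just short of the size counted, and in the controls it was 91.2 FPKM at 700 days and 226 FPKM at 50 days (-1.30). The epidermal form Fabp5 was 140 FPKM in cKO and 88.6 FPKM in control skin at 100 days (0.65), 128 FPKM in cKO and 86.1 FPKM in control skin at 300 days (0.57), and 88.1 FPKM at 700 days and 63.3 FPKM at 50 days (0.47). The quotient of Fabp4 to Fabp5 was 5.69 in cKO and 27.5 in control skin at 100 days, 7.05 in cKO and 20.8 in control skin at 300 days, and in the controls 1.04 at 700 days and 3.57 at 50 days. Fabp4 per FPKM of Lpl stayed between 7.01 and 8.92 in all 6 groups. Fabp4 and Lpl were also the pair of these 10 genes with the smallest distance between profiles (0.22), followed by Fabp5 and Slc27a4 (0.25).

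Aqp7, the channel by which glycerol leaves fat cells, was 6.35 FPKM in cKO and 15.1 FPKM in control skin at 100 days (log2 ratio -1.13). It was 3.01 FPKM in cKO and 13.9 FPKM in control skin at 300 days (-1.89), a lower ratio than that of 98.9% of all genes tested. In the controls it was 0.746 FPKM at 700 days and 2.60 FPKM at 50 days (-1.04). At these low levels the pseudocount weighs on the ratio, which was -1.67 with a pseudocount of 0.1 FPKM. Like Gpihbp1, Aqp7 had its lower genotype ratio at 300 days, while Lpl, Fabp4, Cd36 and Acsl1 had theirs at 100 days.

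**Figure D3:**
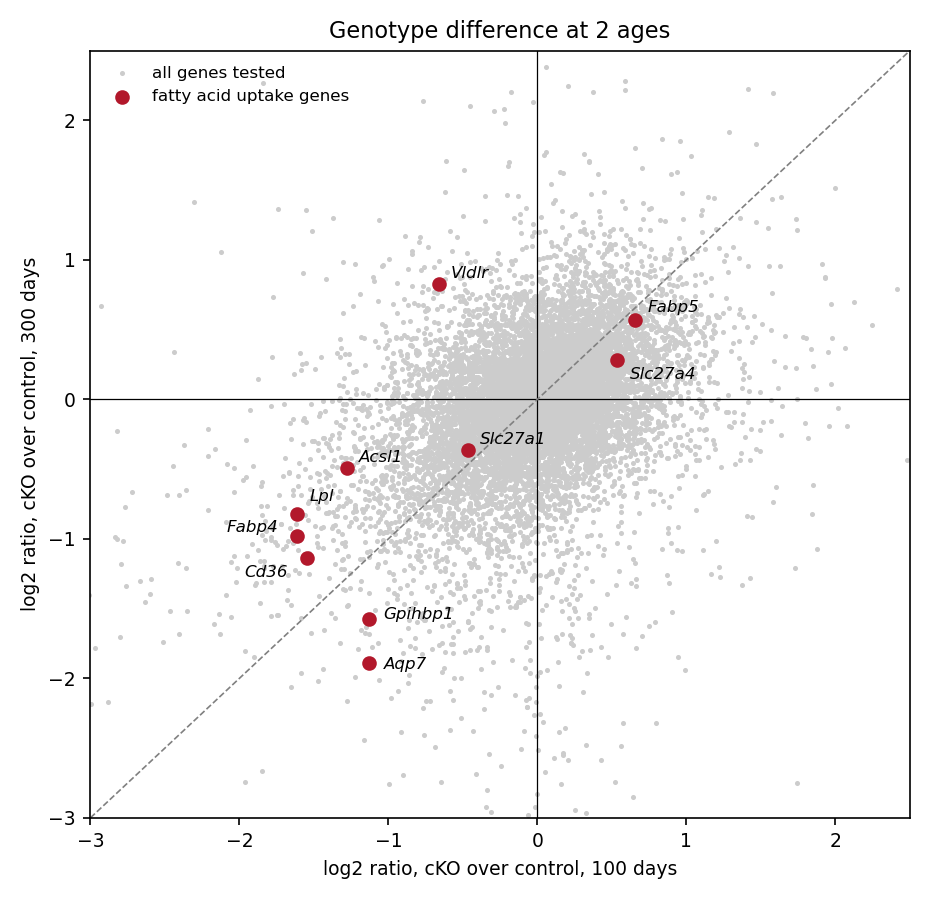
Log2 ratio of cKO over control skin at 100 days (horizontal) and at 300 days (vertical), with the 10 genes in red, all genes tested in grey and equal ratios on the dashed line. Axes run from -3 to 2.5 and leave out 91 other genes. Gpihbp1 and Aqp7 lie below the dashed line, Lpl, Fabp4, Cd36 and Acsl1 above it among the lower genes, and Vldlr at upper left, at -0.66 and 0.83.

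From 100 to 300 days none of the 10 genes passed the size counted in control skin, where 1.02% of all genes were lower and 3.42% higher at 300 days (4.44% either way). The ratios of 300 to 100 days there ran between -0.55 (Cd36) and 0.12 (Slc27a4). Within the cKO only Vldlr passed it (log2 ratio 1.39), against 2.38% of all genes higher, and none was lower, against 1.43% (3.81% either way). Aqp7 (-0.88), Gpihbp1 (-0.84) and Acsl1 (0.59) followed in size. These ages share their group values with the genotype comparisons. In the difference of the genotype ratios, Vldlr alone passed the size counted, against 3.84% of all genes higher, and none was lower, against 4.69% (8.53% either way). Lpl and Acsl1 had differences of 0.79 each, Aqp7 of -0.76.

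Genes that work with these 10 were taken by group. Of 9 tested genes that control or accompany the lipase, 2 were lower and none higher in cKO skin at 100 days, and 1 was lower and 1 higher at 300 days. Angptl4, an inhibitor of the lipase, was 15.0 FPKM in cKO and 32.7 FPKM in control skin at 100 days (log2 ratio -1.07). Apoc1, an apolipoprotein that hinders lipoprotein uptake, was 180 FPKM in cKO and 84.8 FPKM in control skin at 300 days (1.08). None of 7 other lipoprotein receptor genes passed the size counted in any of the 6 comparisons. Of 7 other transport proteins and synthetases none was counted at 100 days or between old and young controls and 1 was lower at 300 days. Slc27a3, a further FATP, was 9.09 FPKM at 300 days and 3.67 FPKM at 100 days in the cKO (1.11) and was the only one counted between these ages.

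All 5 caveola coat genes lay below 0 in both genotype comparisons, with medians of -1.18 at 100 days and -0.76 at 300 days. Caveolae are pits of the plasma membrane that are dense on fat and endothelial cells. At 100 days 4 of the 5 were counted as lower, among them Cav1 at 106 FPKM in cKO and 242 FPKM in control skin (-1.18) and Sdpr, now named Cavin2, at 14.8 FPKM in cKO and 45.7 FPKM in control skin (-1.56). Cav2 was 20.6 FPKM in cKO and 55.6 FPKM in control skin (-1.39), and Prkcdbp, now Cavin3, 10.3 FPKM in cKO and 21.8 FPKM in control skin (-1.02). At 300 days none of the 5 was counted. In old against young controls none was counted either, the median was -0.21 and Cav2 lay above 0 (0.07).

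Among glycerol genes, Pck1, which feeds glycerol synthesis in fat cells, was 23.3 FPKM in cKO and 168 FPKM in control skin at 100 days (log2 ratio -2.80), and 48.2 FPKM in cKO and 159 FPKM in control skin at 300 days (-1.71). Gpd1, which makes glycerol 3-phosphate, was 47.3 FPKM in cKO and 139 FPKM in control skin at 100 days (-1.54), and 3.56 FPKM at 700 days and 10.4 FPKM at 50 days in the controls (-1.32). Aqp3, the glycerol channel of keratinocytes, was 26.1 FPKM in cKO and 14.3 FPKM in control skin at 100 days (0.83), short of the size counted and opposite in sign to Aqp7. Its log2 ratio was 0.22 at 300 days and 0.16 in old against young controls. In all, 2 of the 5 tested glycerol genes were lower and none higher at 100 days, 1 was lower at 300 days, and 1 was lower in old against young controls.

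Of 10 tested regulators, 2 were lower in cKO skin at 100 days and 1 at 300 days, and none was higher or counted between old and young controls. Pparg, the master regulator of fat cells, was 15.3 FPKM in cKO and 35.0 FPKM in control skin at 100 days (log2 ratio -1.14), and 10.2 FPKM in cKO and 23.0 FPKM in control skin at 300 days (-1.10). Vegfb, a growth factor with a proposed part in endothelial fatty acid uptake, was 6.71 FPKM in cKO and 16.3 FPKM in control skin at 100 days (-1.17). Of 4 other binding protein genes tested, Dbi, which binds acyl-CoA, was 499 FPKM in cKO and 1192 FPKM in control skin at 100 days (-1.26). Fabp3, the form of muscle, was 0.106 FPKM at 700 days and 9.55 FPKM at 50 days (-3.25).

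Adipocyte genes were lower beside these genes in all 3 comparisons. Of 15 adipocyte genes, none of them among the 10 but with Pparg and Gpd1 from the lists above, 15 were lower in cKO skin at 100 days (median -1.78), 11 at 300 days (-1.24) and 9 in old against young controls (-1.32), and none was higher. Their summed level was 1741 FPKM in cKO and 5588 FPKM in control skin at 100 days, 1952 FPKM in cKO and 4098 FPKM in control skin at 300 days, and 319 FPKM at 700 days and 972 FPKM at 50 days. None was listed at 0. The lipid droplet coat Plin1 was 29.97 FPKM in cKO and 170 FPKM in control skin at 100 days. At 100 days all 10 fatty acid uptake genes had ratios above the adipocyte median, and at 300 days 8 of 10 did, the exceptions being Gpihbp1 and Aqp7. In old against young controls 9 of 10 did, the exception being Lpl. At 100 days no other list compared had so high a count. The macrophage list did at 300 days, and the skeletal muscle list in old against young controls. In the same order, 3, 8 and 6 of the 10 lay above the median of the macrophage genes described below. Above the skeletal muscle median lay 3, 3 and 10, and above the endothelial median 3, 5 and 4. Above the medians of the basal keratinocyte and differentiated epidermis genes, also described below, lay 2 each time. The part of adipocytes in these differences was not tested.

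Markers of other cells moved as well, and their part in the result was not tested either. Of 10 macrophage genes 1 was lower at 100 days (median -0.50), 6 at 300 days (-1.21) and 5 between old and young controls (-1.003), with summed levels of 141 FPKM in cKO and 181 FPKM in control skin, 163 FPKM in cKO and 402 FPKM in control skin, and 58.0 and 127 FPKM at 700 and 50 days. All 11 skeletal muscle genes were lower at 700 days (median -5.24), with summed levels of 97.7 FPKM at 700 days and 4051 FPKM at 50 days. At 100 days 3 of these 11 were lower (median -0.56), with sums of 13743 FPKM in cKO and 20791 FPKM in control skin, and at 300 days none was counted (0.18; 20056 FPKM in cKO and 17851 FPKM in control skin). Of 9 gland epithelium genes 7 were lower at 100 days (median -4.49), 8 at 300 days (-2.67) and 5 at 700 days (-2.22). Their sums were 59.4 FPKM in cKO and 471 FPKM in control skin, 42.4 FPKM in cKO and 161 FPKM in control skin, and 71.6 and 104 FPKM at 700 and 50 days, with Wfdc2 listed at 0 in the 300-day cKO. Of 7 brown adipocyte genes 1 was lower at 100 days (median -0.65), 1 at 300 days (-0.08) and 2 in old against young controls (-0.13). Above 0 lay 1, 3 and 3 of the 7, with Elovl3 among them each time (0.79, 0.88 and 0.85). Elovl3 and Cidea also stand in the sebaceous gland list below. Ucp1, which makes brown fat cells burn fat, was 2.49 FPKM in cKO and 22.6 FPKM in control skin at 100 days. It was only 0.0436 FPKM at 700 days and 0.141 FPKM at 50 days, where the 2 lower genes were Cox8b (-2.93) and Cox7a1 (-2.59). Of 8 fibroblast genes 1 was lower at 100 days (median -0.72) and 2 between old and young controls (-0.71). At 300 days their median was 0.05, with the collagen genes Col1a1 (1.67) and Col1a2 (1.17) higher and Thy1 (-1.23) lower.

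Keratinocyte lists were set beside Fabp5 and Slc27a4. Of 8 basal keratinocyte genes none was counted at 100 days (median 0.45), 1 was higher at 300 days (0.55) and 1 between old and young controls (0.12). Their summed level was 2437 FPKM in cKO and 1654 FPKM in control skin at 100 days, 2694 FPKM in cKO and 1820 FPKM in control skin at 300 days, and 6315 FPKM at 700 days and 5767 FPKM at 50 days. Krt5, a keratin of the basal layer, was 525 FPKM in cKO and 358 FPKM in control skin at 100 days (0.55), where Fabp5 had 0.65 and Slc27a4 0.54. Differentiated epidermis had medians of -0.19, 0.41 and 0.34 over 9 genes in these comparisons, and epidermal stress genes 0.99, 1.57 and 1.44 over 8 genes. Sebaceous gland genes, another place of lipid synthesis, had medians of 0.32, -0.03 and -0.26 over 9 genes. The ratios of Fabp5 and Slc27a4 lay within the range of the basal keratinocyte genes in each of the 3 comparisons, and equally within those of the differentiated epidermis and sebaceous gland genes.

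**Figure D4:**
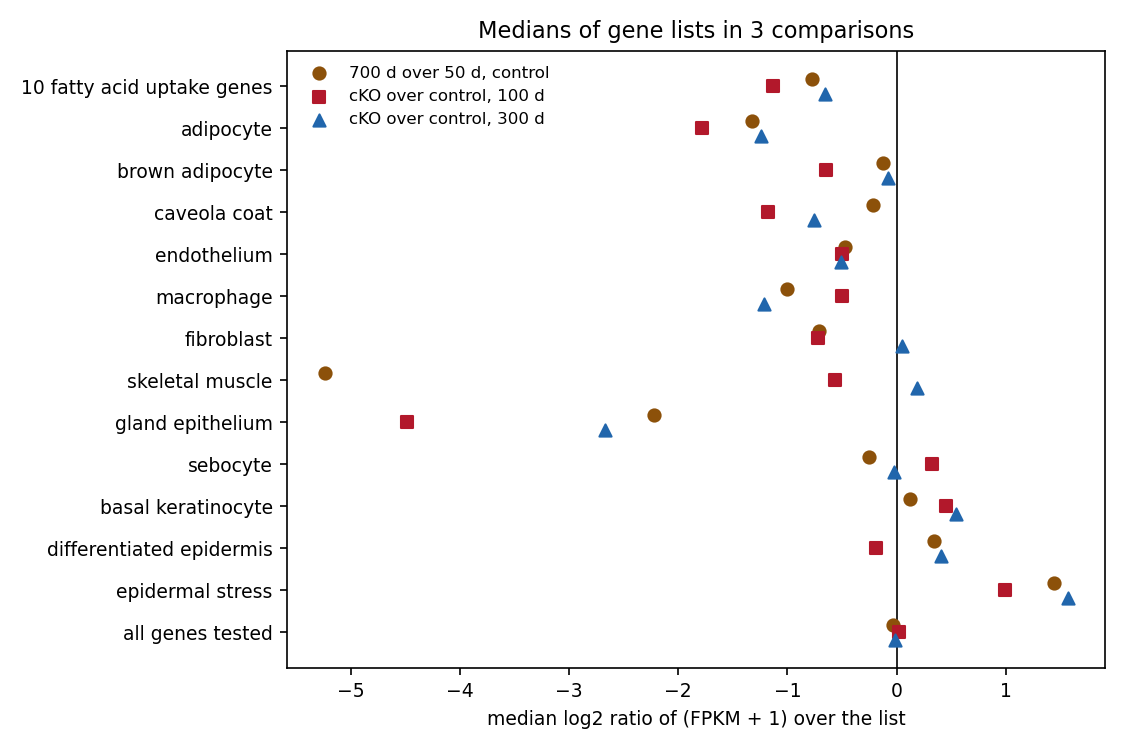
Median log2 ratio of (FPKM + 1), horizontal axis, of the 10 fatty acid uptake genes, of marker gene lists and of all genes tested (rows) in 3 comparisons. Markers are medians over genes of ratios between 2 group values, with no error. In each comparison the median of the 10 genes lies between that of the adipocyte list, at -1.78 to -1.24, and that of all genes tested near 0. The medians of the caveola coat, endothelium, macrophage and brown adipocyte lists lie there too.

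Over all genes tested, the genes with the nearest profiles over the 6 group values were also looked up, as the distance between log2 values centred within each title prefix. Nearest to Fabp4 were Col5a3 (0.20), Mlxipl (0.20) and Lpl (0.22), and nearest to Cd36 were Col5a3 (0.22), Fcor (0.26) and Pcx (0.27). For Lpl they were Itm2a (0.22), Fabp4 (0.22) and Mybph (0.27). Gpihbp1 was nearest to Pnpla2 (0.27), Lrg1 (0.29) and Igf1 (0.32), and Aqp7 to Lrg1 (0.32), Tph1 (0.35) and Gpihbp1 (0.35). Acsl1 had AI464131, Mmp19 and Nudt12 nearest, at 0.12 to 0.13, and Vldlr had Kcnq5, Psenen and Fhl3, at 0.25 to 0.26. Nearest to Fabp5 were Elovl7, Mapk13 and Col17a1, at 0.11 each. Slc27a4 was nearest to Chd8, Abcc1 and Blmh (0.07 to 0.09) and Slc27a1 to Parva, Snapc5 and Pigyl (0.05 to 0.06). The median distance to all genes tested ran from 0.65 for Slc27a4 to 1.85 for Aqp7. Genes that differ little everywhere have near neighbours by construction, and with 6 group values these distances are descriptions.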

How the data were processed

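RNA of whole skin was sequenced in 20 samples of 6 groups, which were taken from the source names in the labels. Per the labels' protocols, ribosomal RNA was removed by either of a pair of kits, unassigned to samples, before directional library preparation. Per the submitters' processing notes, HISAT2, Cufflinks and Cuffdiff were used with mm10; no source used here gives versions or annotation. The authors deposited FPKM, 1 per gene and group; how samples were combined is not stated, so no depth, error or test can be given, and the planned limma test was replaced by log2 ratios as a description.

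Rows with several symbols (1057) and predicted, Rik and similar names were left out, and a symbol with several rows took the highest. Ratios used a pseudocount of 1 FPKM over the 12141 genes whose mean reached 1 FPKM. The 18 lists, the 10 genes and the rules for named genes were chosen with earlier results of these data known: all 10 genes, list members past a size of 1 with at least 5 FPKM, the first genes of marker lists, and the 3 nearest profiles. The counting was tested on simulated tables. Alternatives were other pseudocounts, filters and scalings. Genes were matched to GENCODE M21, promoters to RefSeq. Python 3.11.15, pandas 2.3.3, numpy 2.4.6, matplotlib 3.10.9 and Biopython 1.88 were used.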

Additional observations from a re-analysis of the deposited data

Results flagged for a closer look

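Vldlr was singled out because its cKO and control skin differed in opposite directions at the 2 ages. The log2 ratio was -0.66 at 100 days and 0.83 at 300 days, and 300 minus 100 days was 1.49. With 1 value per group the difference was not tested. Medians of 3 marker lists also went from below 0 at 100 days to above 0 at 300 days: skeletal muscle (-0.56 and 0.18), fibroblast (-0.72 and 0.05) and differentiated epidermis (-0.19 and 0.41). The sebaceous gland median went the other way (0.32 and -0.03). In the difference of ratios, 3.84% of all genes were counted as higher. So were 6 of 9 gland epithelium genes (median 1.60), 4 of 11 muscle genes (0.89) and 4 of 15 adipocyte genes (0.79). Fibroblast genes had 3 of 8 (0.61), brown adipocyte genes 2 of 7 (0.62) and differentiated epidermis 2 of 9 (0.33). The epidermal stress list had 3 of 8, beside 2 past the size in the other direction. Unlike Vldlr, gland epithelium and adipocyte medians stayed below 0 at both ages (-4.49 and -2.67, -1.78 and -1.24). From 100 to 300 days the gland epithelium median was -1.82 in control skin and -0.39 in cKO, and Vldlr -0.10 and 1.39. The part of these lists was not tested.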

How the results depend on the processing

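The 60 ratios of the 10 genes in 6 comparisons were recomputed under 7 alternatives: a pseudocount of 0.1 or 0.5, means from 5 FPKM or no filter, the median of all genes set to 0, equal totals, and summed rows. Of 420 values 418 kept their sign and 416 their side of the size counted. The change of filter and the summed rows could not move these ratios, as each gene passed every filter and had 1 row. The 60 values under each of those settings were therefore fixed in advance, and only the pseudocounts and scalings could change a value. The changes of side were Vldlr (-1.09) in old against young controls and Aqp7 (-1.05) in 300 against 100 days of the cKO with a pseudocount of 0.1, and Cd36 (-0.95) in old against young controls and Aqp7 (-1.01) in 300 against 100 days of the cKO at equal totals. The count of these genes lower at 300 than at 100 days in the cKO was therefore 1 under each of these settings, and the 4 lower in old against young controls became 5 with the pseudocount of 0.1 and 3 at equal totals. The ratio of Aqp7 in old against young controls was -1.67 with that pseudocount. Equal totals shifted the median of all genes by -0.12 in the genotype comparison at 100 days, by -0.18 in 300 against 100 days of the controls and by 0.10 in the difference of genotype ratios. No paired analysis was possible because the table has no values per sample, and leaving out replicates was not run for the same reason. Read depth is unknown.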
